A study of Mus musculus with 7 samples.

Results

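Levels of 10 genes that are widely used to recognise astrocytes in the brain were followed in bulk RNA from mouse medial prefrontal cortex: Gfap, Aqp4, Slc1a2, Slc1a3, Aldh1l1, Gja1, Gjb6, Aldoc, S100b and Sox9. They were taken by symbol, and all 10 were found among the 17732 genes of the authors' deposited table. The mice were male wild-type 129SvEv animals sampled after retrieval of a remote memory, in 3 libraries of a group named CFC and 4 of a group named SC, names that the labels do not spell out. The labels do not tie each library to an animal, so the p-values measure the spread between these libraries. The deposited table holds 1 line per gene, with the mean normalized count over all libraries, a log2 fold change that compares both groups (here log2 change), the standard error (SE) of that change and p-values, and values of single libraries and their depth were not analysed here. Which group is the numerator is not stated, so a difference is called positive or negative by its deposited sign and neither group is called higher. In bulk tissue, fewer cells of a type and less RNA per cell cannot be told apart.

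Astrocytes clear glutamate from synapses, buffer potassium and water, and share ions and metabolites through gap junctions. Slc1a2 and Slc1a3 encode the astrocyte glutamate transporters GLT-1 and GLAST, Gja1 and Gjb6 the gap junction proteins connexin 43 and connexin 30, and Aqp4 the water channel of the end-feet that wrap blood vessels. Gfap encodes an intermediate filament protein. In the cortex it is scarce in the protoplasmic astrocytes of the grey matter and abundant in the fibrous astrocytes of white matter and in astrocytes under the pial surface, and it is the classical marker of reactive astrocytes. Aldh1l1 (a folate enzyme), Aldoc (a glycolytic aldolase), S100b (a calcium-binding protein that some oligodendrocytes also make) and Sox9 (a transcription factor of the glial lineage) serve as general astrocyte markers.

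The 250 bases before the RefSeq transcription start are shown for Gfap and S100b, the members with the highest and lowest deposited fold change. They are also shown for Slc1a3, the transporter gene with the lower fold change. The bases just after the start were found in a GENCODE M21 transcript of the same gene for Gfap. They were not found in one for S100b, for Slc1a3 or for Gja1 (window not shown), so these starts are less certain. Windows from the RefSeq table (GRCm38.p6) were used for 8 of the 10 members. Aqp4 and Sox9 were not among the windows used, which does not mean that RefSeq lacks a start for them. Capitals mark 5 motifs found on either strand. The STAT motif was searched as TTCNNNGAA. The NFI motif, one side of its palindrome, was searched as TTGGC. The SOX motif was searched as ACAATG. The Sp1 motif was searched as GGGCGG. The basal promoter motif of TBP was searched as TATAAA. The windows are chr11:102897201-102897450 on the minus strand for Gfap, chr10:76253586-76253835 on the plus strand for S100b and chr15:8710808-8711057 on the minus strand for Slc1a3, each read 5′ to 3′ along its gene.
Gfap: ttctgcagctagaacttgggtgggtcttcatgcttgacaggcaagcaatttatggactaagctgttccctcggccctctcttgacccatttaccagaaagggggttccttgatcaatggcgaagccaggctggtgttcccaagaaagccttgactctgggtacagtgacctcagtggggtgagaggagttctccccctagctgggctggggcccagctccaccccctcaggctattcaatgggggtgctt
S100b: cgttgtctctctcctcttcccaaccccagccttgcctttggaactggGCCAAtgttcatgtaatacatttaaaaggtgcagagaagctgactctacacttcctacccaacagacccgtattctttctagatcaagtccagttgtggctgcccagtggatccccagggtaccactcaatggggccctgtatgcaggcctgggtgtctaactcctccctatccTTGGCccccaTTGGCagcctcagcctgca
Slc1a3: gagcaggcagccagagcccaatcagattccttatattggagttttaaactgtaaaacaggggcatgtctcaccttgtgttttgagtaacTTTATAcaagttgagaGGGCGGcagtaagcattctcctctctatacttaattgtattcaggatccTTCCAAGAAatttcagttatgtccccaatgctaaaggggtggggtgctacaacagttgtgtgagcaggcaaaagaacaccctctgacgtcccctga

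The Gfap window held none of these letters. The S100b window held 3 NFI motifs, and the Slc1a3 window held 1 match each of the STAT, Sp1 and TBP letters. Of the windows not shown, that of Slc1a2 held 1 NFI motif, that of Aldh1l1 held 1 Sp1 motif, and those of Gja1 and Gjb6 held none. Aldoc has 2 starts in the table, with 1 NFI and 1 Sp1 motif before the first and 2 STAT motifs before the second. Over 32851 RefSeq windows of the same length, 7.02% held the STAT letters, 41.51% the NFI letters, 10.69% the SOX letters, 32.74% the Sp1 letters and 12.37% the TBP letters. A match describes the letters and is not evidence of binding.

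Per length of exon, the glutamate transporter Slc1a2 (ENSMUSG00000005089) had the highest level of the members. Its mean normalized count of 76891 per the authors' deposited table corresponds to 5855 per kb of its 13.1 kb of annotated exon. Aldoc followed with 2400.4 per kb, Slc1a3 with 1048 per kb and S100b with 527 per kb. The other 6 genes lay close together, from 265 per kb for Gja1 through 231 for Gfap, 214 for Aqp4, 201 for Gjb6 and 167 for Sox9 to 163 per kb for Aldh1l1. Neighbours among these 6 differed by at most 1.2 times, and without values per library their order was not tested. Gfap was in the lower group, with a mean normalized count of 975 per the authors' deposited table. The exon length is that of all annotated isoforms together, which lowers the level per kb of a gene whose long isoforms are little used.

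**Figure D1:**
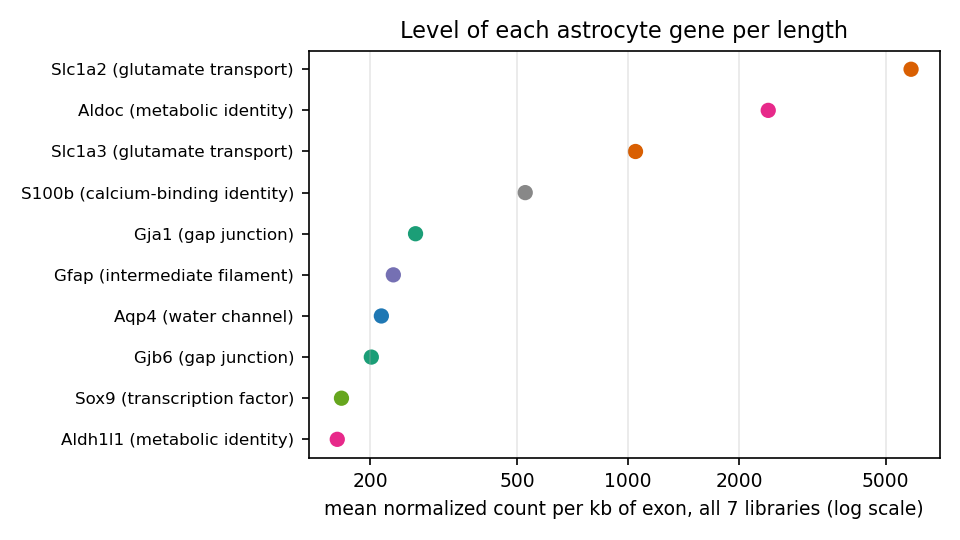
Mean normalized count over all 7 libraries divided by the kb of annotated exon (x axis, log scale) for each of the 10 astrocyte genes (y axis), coloured by role. Slc1a2, Aldoc, Slc1a3 and S100b stand above the other 6 genes, which lie between 163 and 265 per kb.

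None of the 10 members was under 0.05 by the adjusted p-value of the authors' deposited DESeq2 test. The same threshold called 67 of 13060 genes, or 0.513%. Unadjusted p-values under 0.05 were found for 3 members, S100b, Aldoc and Slc1a3, where 8.1% of all tested genes passed. All 3 were negative, and 3.54% of all tested genes were negative at that threshold. All 10 had passed the authors' filter on low mean counts. Of the 10 log2 changes per the authors' deposited table, 7 were negative and 3, those of Gfap, Gja1 and Gjb6, were positive. Their median was -0.10, beside -0.0017 over all 13060 tested genes, of which 50.6% were negative.

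Gfap (ENSMUSG00000020932), at chr11:102887336-102900912 on the minus strand in GRCm38, had the highest log2 change of the members per the authors' deposited table, 0.56 with an SE of 0.43. Its adjusted p-value was 0.914 per the authors' deposited table. The 95% interval ran from -0.29 to 1.41 on the log2 scale, which is a ratio between 0.82 and 2.66. Both a difference of 0 and a ratio of 2 lie inside that interval, so the data do not resolve the sign of Gfap.

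The glutamate transporters had smaller errors than Gfap, and both values were negative. Slc1a2 had a log2 change of -0.05 with an SE of 0.07 per the authors' deposited table, and an interval from -0.19 to 0.09. This limits the ratio to between 0.876 and 1.06 for the most abundant member. Slc1a3 (ENSMUSG00000005360, chr15:8634124-8710764, minus strand) had a log2 change of -0.14 with an SE of 0.07, an unadjusted p-value of 0.0434 and an adjusted one of 0.623 per the authors' deposited table. Its 95% interval, from -0.28 to -0.0042, ended just short of 0, and with a t quantile in place of the normal one it ran to 0.04.

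Both connexins had small positive values. The log2 change of Gja1 (ENSMUSG00000050953) was 0.09 with an SE of 0.08 per the authors' deposited table, and that of Gjb6 (ENSMUSG00000040055) was 0.08 with an SE of 0.10. Their intervals, from -0.08 to 0.25 and from -0.11 to 0.28, both held 0, and the adjusted p values per the authors' deposited table were 0.971 and 0.988. The water channel gene Aqp4 lay closest to 0 of all members, at -0.0081 with an SE of 0.10 per the authors' deposited table, and its interval from -0.21 to 0.19 limits its ratio to between 0.866 and 1.14.

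The 4 general identity genes were all negative. S100b (ENSMUSG00000033208, chr10:76253853-76261159, plus strand) had the smallest p-value of the members, with a log2 change of -0.44, an SE of 0.12 and an adjusted p-value of 0.0689 per the authors' deposited table. Its 95% interval from -0.68 to -0.20 corresponds to a ratio between 0.625 and 0.873, and 78 of the 13060 tested genes had a smaller p-value. S100b was under a looser adjusted threshold of 0.1 and not under 0.05, and its adjusted p-value ranged from 0.0587 to 1 over the alternatives tried. The upper end came from testing against a 1.2-fold change, a stricter rule by construction. The adjusted p-value of S100b was 0.0796 with no filter on the mean count and 0.999 with a t reference, also a stricter rule.
Aldoc (ENSMUSG00000017390, chr11:78322968-78327781, plus strand) had the smallest SE of the members, 0.06, beside a log2 change of -0.17 and an adjusted p-value of 0.16 per the authors' deposited table. Its interval ran from -0.28 to -0.06. Aldh1l1 and Sox9 had nearly the same log2 changes per the authors' deposited table, -0.15 each, with SEs of 0.09 and 0.10 and adjusted p values of 0.821 and 0.826. Both intervals held 0, from -0.34 to 0.03 for Aldh1l1 and from -0.35 to 0.04 for Sox9. In GENCODE M21, exons of Aldh1l1 overlap those of Gm45901 on the same strand and Gm15756 on the opposite one, and exons of Slc1a2 those of Gm13872 on the opposite strand, so reads of these pairs may be shared. The exons of the other 8 members overlap those of no other annotated gene.

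**Figure D2:**
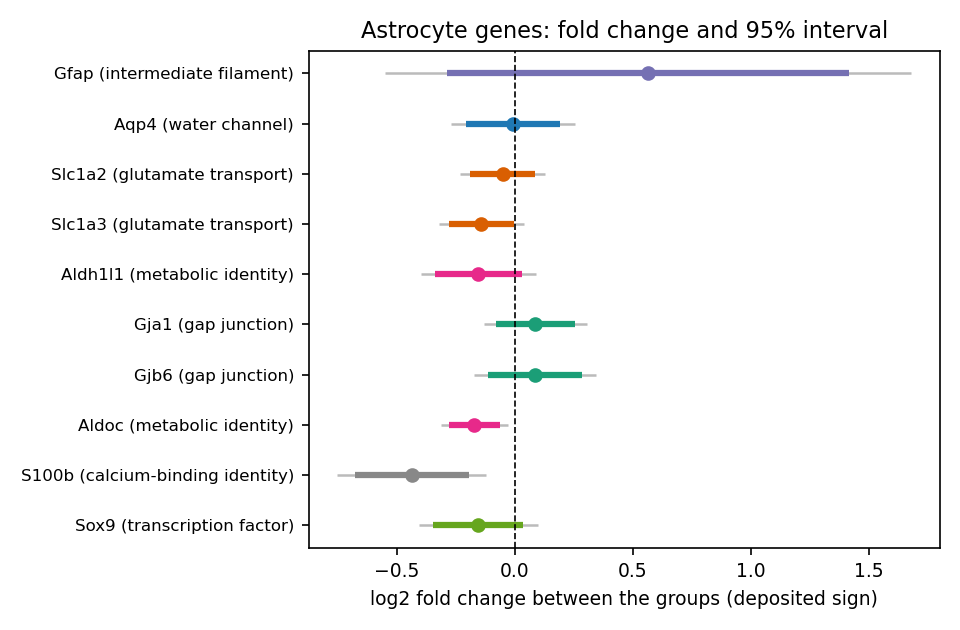
Deposited log2 change (points, x axis) of the 10 astrocyte genes (y axis), with the 95% normal interval (thick bars) and the interval from a t quantile with 5 degrees of freedom (thin bars). The Gfap interval, from -0.29 to 1.41, is far wider than the others, and those of S100b and Aldoc lie below 0 under both quantiles.

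Gfap was set against the transport and gap junction genes directly, by the difference between their log2 changes. Gfap minus the mean of Slc1a2 and Slc1a3 was 0.66, with a 95% interval from -0.20 to 1.51 when the genes' errors were taken as independent. Gfap minus the mean of Gja1 and Gjb6 was 0.48, with an interval from -0.38 to 1.34. Both intervals held 0, as did those of Gfap against each of the 4 genes alone, where the difference lay between 0.48 and 0.70. Gfap was thus the highest of these 5 genes, and the difference was not resolved: its SE was 0.44 in both comparisons, beside 0.43 for Gfap alone per the authors' deposited table.
The connexins and the transporters also lay on opposite sides of 0. The mean of Gja1 and Gjb6 minus that of Slc1a2 and Slc1a3 was 0.18, with an interval from 0.02 to 0.34 for independent errors. This comparison was chosen after the values were seen, and its interval held 0 when the errors were added in full (from -0.14 to 0.50) or with a t quantile (from -0.03 to 0.39). Errors added in full are the widest case, with errors opposed between the sides. Errors that rise and fall together would narrow the interval, and which holds was not tested.

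The error of Gfap was large for its abundance. Genes of similar abundance have similar SEs in such a table, and the error of Gfap was 5.66 times the running median of the 501 genes around it in mean count. Only 13 of 13060 genes had a higher ratio, and 1.85% had a ratio over 2. The other 9 members had ratios from 0.967 for Aldoc to 1.5 for S100b. The ratio of S100b was exceeded by 2.2% of genes, those of Aqp4 and Gja1 by 2.73% and 3.64%, and that of Aldoc by 71.2%. With libraries of equal size, the error of Gfap corresponds to a coefficient of variation between libraries of a group of about 39.3%, and those of the other 9 members to between 5.03% for Aldoc and 11.1% for S100b. DESeq2 draws the variation of most genes towards a common trend and leaves that of outlying genes as measured, so the low figures may be partly borrowed from other genes.

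Those named among the 13 genes with a higher ratio than Gfap were chosen after their values were seen. Of the 13, 6 are on the list of 8 oligodendrocyte markers, with Mbp, Mobp and Mag among them, and Cldn11, Bcas1 and Trf are also known from myelinating cells. The remaining 4 were Lars2, Bc1, Mir6236 and Col6a1. All 13 had a positive log2 change per the authors' deposited table, as Gfap did. The 8 oligodendrocyte markers had error ratios from 4.43 to 9.0 and log2 changes from 0.95 to 1.67 per the authors' deposited table, all positive. None was under an adjusted p-value of 0.05 and all 8 were under an unadjusted one, beside 0.513% and 8.1% of all tested genes. The summed level of these 8 markers per group was not analysed here, none was absent from the table, and their part in the Gfap result was not tested.

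**Figure D3:**
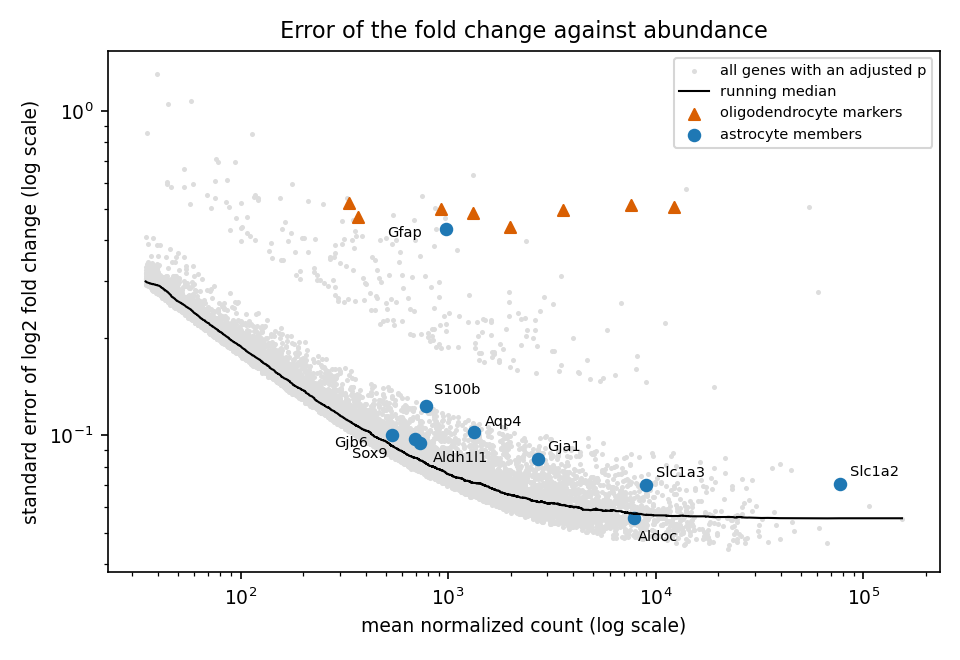
SE of the log2 change (y axis, log scale) against mean normalized count (x axis, log scale) for 13060 genes (grey), with the running median (line), the 10 astrocyte genes (circles) and 8 oligodendrocyte markers (triangles). Gfap lies among the oligodendrocyte markers, at 5.66 times the line, and the other 9 astrocyte genes lie at 0.967 to 1.5 times the line.

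None of the other transport, ion and water genes examined was called, where 0.513% of all tested genes were. On the list for transmitter transport and recycling, 8 of 9 genes had an adjusted p-value, none under 0.05, 3 positive and 5 negative, and their median log2 change was -0.07. Slc38a3, which exports glutamine from astrocytes, had a log2 change of -0.17 and an adjusted p-value of 0.474 per the authors' deposited table. The cystine-glutamate exchanger gene Slc7a11 was at -0.15, Glud1 (glutamate dehydrogenase) at -0.09 and Slc38a5 at -0.50 per the authors' deposited table, the last with no adjusted p-value at a mean count of 32.3. Glutamine synthetase, Glul, was at -0.08 with an SE of 0.06 per the authors' deposited table. The 3 positive genes, Slc6a9, Slc7a10 and Grm3, were at 0.11, 0.03 and 0.02 per the authors' deposited table.
The 12 genes for potassium, water and the end-foot complex had a median of -0.04, none called, 5 positive and 7 negative. The end-foot membrane protein gene Mlc1 was at -0.17, the sodium pump subunit gene Atp1b2 at -0.12, and dystrophin, Dmd, at 0.12, with adjusted p values of 0.34, 0.741 and 0.626 per the authors' deposited table.

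Among 18 further astrocyte identity genes, 11 were negative and 7 positive, none passed the adjusted threshold, and the median was -0.03. Unadjusted p-values under 0.05 were found for 4 negative and 2 positive genes. Of all tested genes, 0.513% passed the adjusted threshold, 8.1% the unadjusted one, and 3.54% the unadjusted one as negative genes. The lipid enzyme gene Acsbg1 (-0.23), the thyroid hormone transporter gene Slco1c1 (-0.23) and the secreted phagocytosis factor gene Mfge8 (-0.19) had adjusted p values of 0.108, 0.246 and 0.298 per the authors' deposited table, and error ratios between 0.990 and 1.10. The transcription factor gene Nfib was positive at 0.23, with an adjusted p-value of 0.339 per the authors' deposited table. Error ratios over 2 were found in 3 of the 18 genes, the transcription factor genes Zbtb20 (3.31) and Nfia (2.52) and the fatty acid binding protein gene Fabp7 (2.28). Their log2 changes per the authors' deposited table were 0.47, 0.24 and 0.09.

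The reactive gene lists showed no called gene, where 0.513% of all tested genes were called. At that share no call is the usual outcome for lists this short, so the count does not speak to reactivity. Of 12 pan-reactive genes, 11 were in the table and 7 had an adjusted p-value, with a median of -0.09, 3 positive and 4 negative. The protease inhibitor gene Serpina3n, a reactive astrocyte marker, was at 0.11 with an SE of 0.07, Vim (vimentin, the filament partner of Gfap) at 0.20 with 0.14 and Cd44 (a hyaluronan receptor) at -0.27 with 0.20 per the authors' deposited table. Aspg was at 0.39 with an SE of 0.40 per the authors' deposited table, with no adjusted p-value at a mean count of 22.7.
Of the 13 genes on the A1 list, which are induced by inflammatory signals, 6 had an adjusted p-value, with a median of 0.03. Its 4 smallest p-values were those of Iigp1, Fkbp5, Ggta1 and H2-T23, with log2 changes of 1.32, 0.23, 0.39 and -0.16 per the authors' deposited table, none with an unadjusted p under 0.05. Of the 12 genes on the A2 list, first seen after ischaemia, 3 had an adjusted p-value, with a median of -0.07. B3gnt5 and Cd109 of that list were positive at 1.0 and 1.31 with unadjusted p values of 0.0132 and 0.0137 per the authors' deposited table, but at mean counts of 29.2 and 12.5 they had no adjusted one.
The 5 intermediate filament and cytolinker genes had a median of 0.07, none called. Nes (nestin) and Synm (synemin), which assemble with vimentin, were at 0.17 and 0.07 with SEs of 0.17 and 0.07 per the authors' deposited table. Signals that control Gfap were also looked at, in a list of 20 STAT3, BMP and Notch genes of which 18 had an adjusted p-value. None had an unadjusted p-value under 0.05, where 8.1% of all tested genes passed, and the median was 0.03. Notch2, Notch1 and the Notch target Hes5 were at 0.21, 0.19 and -0.32 with adjusted p values of 0.796, 0.832 and 0.894 per the authors' deposited table.

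One astrocyte gene on these lists passed the threshold, beside 67 of all 13060 tested genes, or 0.513%. Over so many listed genes, 1 call is not read as a result about astrocytes. The gene was Chrdl1, whose secreted product matures synapses and which is enriched in astrocytes of the upper cortical layers. Its log2 change was -0.41 with an SE of 0.11 and an adjusted p-value of 0.0466 per the authors' deposited table, and its adjusted p ranged from 0.04 to 1 over the alternatives tried. It was above the threshold at 0.0554 with no filter on the mean count, at 1 against a 1.2-fold change and at 0.999 with a t reference. Its ratio interval, from 0.648 to 0.874, is close to that of S100b. Il33 and Id3, which are higher in deep-layer astrocytes, were at 0.19 each with adjusted p values of 0.964 and 0.906, and Myoc was at 1.04 with a mean count of 6.74, per the authors' deposited table. The median of the 5 regional genes with an adjusted p-value was -0.02. With Chrdl1 included, the list named for secreted synapse factors had 5 positive and 6 negative genes with an adjusted p-value and a median of -0.03. Not all of its 12 genes encode secreted proteins. Thbs4, a thrombospondin, had the highest value of any listed astrocyte gene with an adjusted p-value, 3.28 with an SE of 1.05 and an adjusted p-value of 0.159 per the authors' deposited table, at a mean count of 44.7 and an error ratio of 3.81. Apoe and Thbs2 were at -0.13 and 0.40 with adjusted p values of 0.421 and 0.613 per the authors' deposited table. The 10 glycogen and lactate genes had 8 negative and 2 positive values, a median of -0.04 and none called.

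Markers of other cells were read beside these results. The microglia list (6 of 7 negative, median -0.13) and the endothelial and pericyte list (6 of 7 negative, median -0.15) had lower medians than the astrocyte members. No gene on either list was called, beside 0.513% of all tested genes. The 6 neuron markers, which include Slc17a7 of cortical excitatory cells and were at mean counts from 4095 to 39800.4 per the authors' deposited table, had a median of -0.01. The neuronal splicing factor gene Rbfox3 was at -0.17 with an unadjusted p-value of 0.0165 and an adjusted one of 0.437 per the authors' deposited table. The 4 oligodendrocyte precursor markers had a median of 0.0075. Markers of neural stem cells and neuroblasts, some of which are themselves Gfap-expressing, included Mki67 at 1.94, Dcx at 0.19 and Tfap2c at 3.95, with unadjusted p values of 0.0224, 0.0209 and 0.0225 per the authors' deposited table. Tfap2c had a mean count of 1.78, and the error ratio of Mki67 was 4.82. The 3 meningeal markers with an adjusted p-value had a median of 0.47, all positive. The other meningeal markers, Lum and Igf2, were negative at -0.10 and -0.24 per the authors' deposited table. Their mean counts were 9.81 and 7.06, and they had no adjusted p-value. Among meningeal and choroid plexus markers, Ptgds was at 0.93 with an error ratio of 4.81, Kl at 0.59, and Ttr was listed at 1.86 with no p-value per the authors' deposited table, while Folr1 and Tmem212 were not found by symbol. None of these passed the adjusted threshold, and their part in the Gfap value was not tested.

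**Figure D4:**
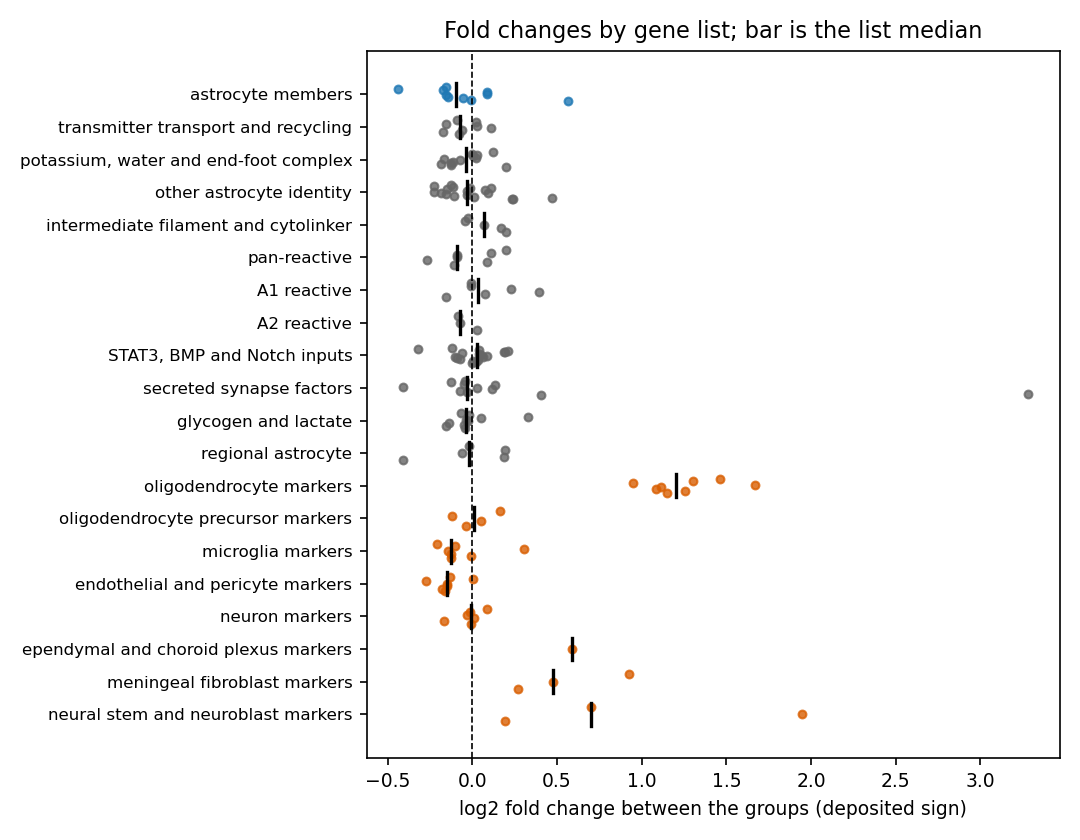
Deposited log2 change (x axis) of each gene with an adjusted p-value, by gene list (y axis), with astrocyte members in blue, other astrocyte lists in grey, markers of other cells in orange and list medians as bars. Astrocyte lists centre near 0, with single genes away from it on either side, such as Thbs4 (3.28), Gfap (0.56), Zbtb20 (0.47), Thbs2 (0.40), Ggta1 (0.39), Chrdl1 (-0.41) and S100b (-0.44), while the 8 oligodendrocyte markers lie from 0.95 to 1.67.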

How the data were processed

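Polyadenylated RNA was sequenced with the KAPA mRNA HyperPrep kit from 100 ng of RNA, per the labels' protocols. The submitters' processing notes name Trimmomatic, Subread, DESeq2 and the build mm10, with no versions. The counting parameters and strand setting are not given in the sources used here. Per the file headers, the deposited table gives a mean normalized count (a signal averaged over 7 libraries), the log2 fold change with its error, the Wald score, and an unadjusted and an adjusted p-value per gene. The test is the authors' DESeq2 Wald test. Intervals were computed as the log2 fold change plus or minus a normal quantile times the deposited standard error (95%). They cover the error the authors' model estimated. Error ratios divide a standard error by the running median over 501 genes of neighbouring mean count. Differences between genes assumed independent errors, and errors added in full, the widest case, were an alternative. Calculations used Python 3.11.15, numpy 2.4.6, pandas 2.3.3 and scipy 1.17.1, and were run on simulated data with independent normal errors of known size. That simulation checks the arithmetic and cannot test the effect of shared libraries or estimated errors. Positions, exon lengths and overlaps came from GENCODE M21 (GRCm38), promoters from RefSeq GRCm38.p6. Where a symbol had several IDs the highest mean count was used.

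All 10 members are named; from each list, called genes and up to 4 genes of smallest unadjusted p are named. The members and lists were chosen with earlier results of these data known. Some genes are on several lists, and some that the rule would name are not reported here. Glul, Slc6a9, Slc7a10, Grm3, Zbtb20, Nfia, Fabp7, Lum and the genes of high error ratio fall outside this rule and were chosen after their values were seen. Genes of like pattern could not be sought without values per library.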

Additional observations from a re-analysis of the deposited data

How the results depend on the processing

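No paired analysis was possible because only summary values per gene were used here, and for the same reason no library was left out. Whether 1 library decides the Gfap error was not tested. Of all genes, 67 passed the adjusted threshold of 0.05. A threshold of 0.1 gave 101 genes and 1 member (S100b), and testing against a 1.2-fold change gave 2 genes. A t reference with 5 degrees of freedom for the DESeq2 statistic gave 0 genes, with 394 genes and 2 members at an unadjusted p under 0.05. The threshold of 0.1 is a looser rule by construction, and the 1.2-fold null and the t reference are stricter rules by construction. With no filter on the mean count (60 genes) or a minimum of 100 (68 genes) no member passed. Both Gfap differences stayed positive with intervals that held 0 when the genes were weighted by their errors or each was used alone. Since the SE of Gfap makes up most of these intervals, neither choice could move them much. Errors added in full and a t quantile only widen these intervals. Centring on the median of all genes, -0.0017, could change no member's sign, since the member closest to 0, Aqp4, was at -0.0081. With the t quantile, which leaves the values as they are, the interval of Slc1a3 came to include 0. The table's errors include depth, which is unknown per library.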
